A study of Mus musculus with 16 samples.

Results

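The cells described here are untargeted tumour cells that shared a tumour with cells under T cell attack, the bystander mCherry cells. The tumour line is 4T07, a mouse mammary carcinoma line. In the treated mice, 4T07 cells carrying green fluorescent protein (GFP) and 4T07 cells carrying the red protein mCherry grew as a 1:1 mixture in a mammary fat pad, and T cells specific for GFP, called Jedi, were given on day 15. The mCherry cells do not carry GFP, so the comparison asks what 4T07 cells that are not themselves a target express in such a tumour. It sets 3 bystander mCherry libraries (labelled JedimCherry) against 4 libraries of mCherry cells from control tumours, which makes 7 of the 16 libraries in the series.

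The bystander tumours came from 250000 injected cells, and the mice received PD1KO Jedi T cells (7000000) through the tail vein on day 15 and were killed 7 days later. The control tumours held mCherry cells without GFP cells, and the mice had no Jedi injection. Their age at harvest and the number of cells injected are not given for them in the labels, whose growth text describes the mixed tumours. All mice are labelled as C57BL/6J x Balb/cJ hybrids, with a generation number that differs from label to label. Age and sex of the mice are not given. Every tumour was digested in the same way, stained for CD45, the surface protein of blood cells, and sorted with DAPI as the stain for dead cells. The labels do not state the CD45 gate, nor which of 2 RNA extraction routes a library took. The 7 libraries were sequenced in run 2. GFP cells, T cells and possibly tumour age all differ between the groups, so these factors cannot be told apart. Libraries are numbered as the count columns, 1 to 3 for bystander and 1 to 4 for control. The 2 groups come from different mice, and p-values measure the spread between tumours of a group. Gene positions are whole gene spans on mm10 (GRCm38).

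As background, T cells that find their target release interferon gamma, which acts on any cell with its receptor, including neighbours that lack the target. The receptor signals through the kinases Jak1 and Jak2, and the response switches on the guanylate-binding proteins and immunity-related GTPases, the MHC class I pathway that shows peptides to CD8 T cells, and Cd274, the gene of the checkpoint ligand PD-L1. Type I interferon drives a largely overlapping antiviral set that includes Mx1, Ifit and Oas genes. Changes in how fast tumour cells divide show in the genes of DNA replication and mitosis.

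Total counts were 21832170 to 22248031 in the 3 bystander libraries and 24367417 to 32808354 in the 4 controls. Genes encoded in mitochondria took 1.12% to 1.54% of the counts over the 7 libraries. Pearson's r of log2(CPM + 1), a description across the 14800 genes tested, was 0.987 to 0.993 between libraries of one group and 0.983 to 0.994 between libraries of different groups. Levels below are in CPM, counts divided by the library total on a fixed scale, after TMM scaling over the 10 libraries of the run. The mesenchymal filament gene Vim stood at 3351, 3455 and 3299 CPM in the bystander libraries and at 3306, 3689, 3509 and 3424 in the controls, and the keratin genes Krt8 and Krt18 were also expressed in all 7. Epcam, an epithelial surface marker, was low, at 1.11, 0.915 and 1.42 CPM against 0.825, 1.901, 2.61 and 1.03. The reporter genes GFP and mCherry were not analysed here. Ptprc, the gene of CD45, was at 1.46, 0.9603 and 1.102 CPM in the bystander libraries and at 1.84, 3.504, 2.01 and 1.54 in the controls. In bulk RNA, fewer cells of a type and less RNA per cell cannot be told apart, and this holds for every marker named below.

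No gene differed between bystander and control mCherry cells at the threshold. Of 14800 genes tested with edgeR's quasi-likelihood test, 0 were called higher (0%) and 0 lower (0%) at an adjusted p of 0.05, and the smallest adjusted p was 0.251. An unadjusted p under 0.05 was found for 1147 genes on the higher side (7.75%) and 957 on the lower side (6.47%). DESeq2 on the same counts called 145 of 11956 genes higher (1.21%) and 98 lower (0.820%), limma voom called 0, and edgeR with a robust prior called 0. The 3 bystander libraries lay above all 4 controls in 1170 genes (7.91%) and below all 4 in 957 genes (6.47%). The median log2 fold change over all genes was -0.0049, and 49.0% of estimates were above 0.

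**Figure D1:**
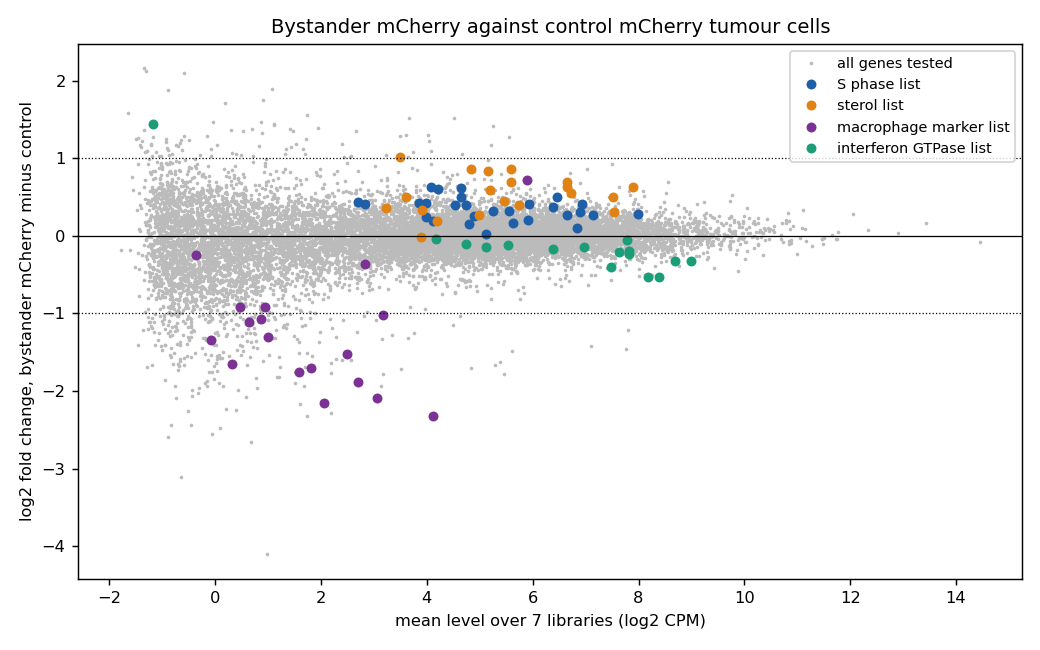
Each grey point is 1 of the 14800 genes tested, with its mean level over the 7 libraries (log2 CPM) on the x axis and the log2 fold change of bystander mCherry over control on the y axis; dotted lines mark 2-fold. All 28 S phase genes and 19 of 20 sterol genes lie above 0, 17 of 18 macrophage markers and 15 of 16 interferon GTPases lie below 0, and no point passed an adjusted p of 0.05.

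A p that misses the threshold does not show that the groups act alike, so the intervals are given. The median standard error of a log2 fold change was 0.125, and the 95% interval lay within 2-fold in either direction for 11872 genes (80.2%). An estimate beyond 2-fold was found for 366 genes. Apart from 44 genes of a set panel and abundant cell type markers, the genes named below were chosen after their values were seen.

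Interferon-induced GTPase genes of bystander cells overlapped the control tumours in 16 of 16 members. Over all genes, 7.91% lay above every control and 6.47% below, so this count does not set the list apart. The list held 15 estimates below 0 and 1 above, with 0 called and a median of -0.18. The member above 0 was Gvin1, under 1 CPM in all 7 libraries. None of the 16 had a 95% interval within 2-fold, beside 80.2% of all genes. Gbp2 (chr3:142620602-142638008), a guanylate-binding protein that attacks membranes around pathogens, was at 318, 477 and 519 CPM in bystander libraries 1 to 3 and at 607, 291, 363 and 941 in controls 1 to 4. Control 4 was the highest of the 7 and control 2 the lowest, so the bystander values sat within the control range. Iigp1, an immunity-related GTPase, had the same highest and lowest library, with 217, 356 and 497 CPM against 467, 159, 201 and 956. The log2 fold change of Gbp2 was -0.33 (95% interval -1.17 to 0.52), and that of Iigp1 was -0.32 (-1.63 to 0.99). The direction of the GTPase list rests on single libraries: its median was 0.35 with 16 of 16 estimates above 0 without control 4, and 0.04 without bystander library 1.

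Receptor and signalling genes had estimates on both sides of 0. Ifngr1, a chain of the interferon gamma receptor, had a log2 fold change of 0.27 (0.04 to 0.50), and Jak1, its kinase, one of 0.18 (0.03 to 0.34). Jak1 was at 119, 117 and 131 CPM in the bystander libraries and 106, 116, 107 and 103 in the controls, a small step that separated the groups. Irf1, a transcription factor induced by interferon, was at 313, 363 and 355 CPM against 537, 265, 386 and 476, and Socs1, the feedback inhibitor of the Jak kinases, at 21.1, 28.4 and 32.5 CPM against 38.6, 28.1, 36.4 and 71.8. Of the 17 genes of the signalling list, 8 estimates were above 0 and 9 below. Intervals lay within 2-fold for 14, beside 80.2% of all genes. In that list 1 member lay above every control and 1 below, beside 7.91% and 6.47% of all genes. The median of that list was -0.03, and 0.02 without control 4. Ifng itself had 0 counts in all 7 libraries, which allows up to 3 counts in each, or 0.0891 to 0.138 CPM, for counting error only.

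Cells of the same 3 tumours that carried GFP differed from the bystander cells in these genes. In the paired test of GFP against mCherry, 1275 of 14260 genes were called higher in GFP cells (8.94%) and 1507 lower (10.6%). For the GTPase list, 15 of 16 were called higher in GFP cells and 0 lower. Gbp2 in the GFP libraries was 701, 881 and 1214 CPM, a log2 difference from the bystander cells of 1.08 (adjusted p = 9.95e-05). Iigp1 was 412, 869.6 and 1237 CPM there, with a log2 difference of 1.17 (adjusted p = 8.39e-05). This paired comparison uses the same 3 bystander libraries as the comparison with the controls, so the values are set side by side and are not independent of each other.

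**Figure D2:**
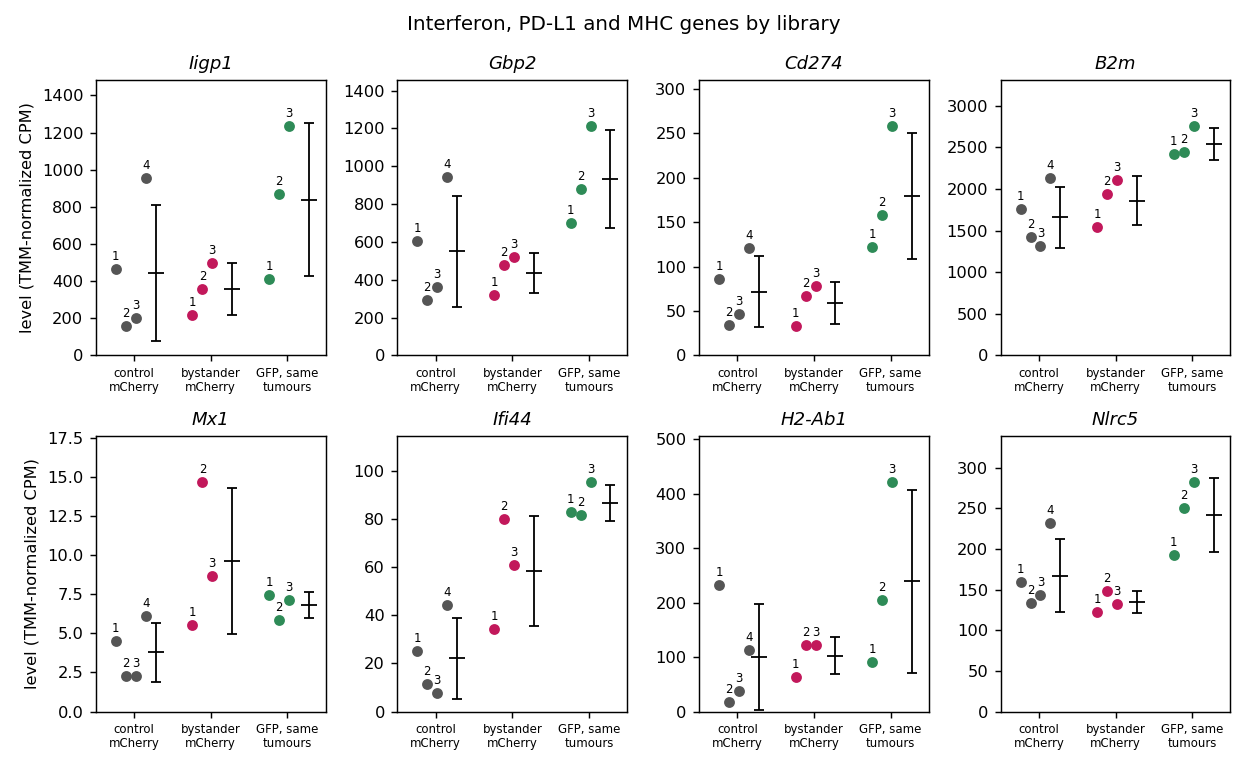
Level of 8 interferon, PD-L1 and MHC genes (CPM, linear axis from 0) in each library, numbered as in the text; bars give the mean and SD of 4 control, 3 bystander and 3 GFP libraries. Bystander points overlap the controls in all 8 panels. Control 4 is the highest control for Iigp1, Gbp2, Cd274, B2m, Mx1, Ifi44 and Nlrc5, and control 1 for H2-Ab1.

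PD-L1 expression overlapped between the groups. Cd274 (chr19:29367455-29388095) was at 32.7, 66.9 and 77.7 CPM in bystander libraries 1 to 3 and at 85.6, 34.03, 46.4 and 121 in controls 1 to 4. Bystander library 1 was the lowest of the 7 and control 4 the highest. The log2 fold change was -0.28 (-1.27 to 0.72), and the adjusted p was 0.791. GFP cells of the same tumours had 122, 158 and 259 CPM, with a log2 difference from the bystander cells of 1.61 (adjusted p = 4.10e-05).

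The other genes of the checkpoint list had estimates on both sides of 0. The list of 24 genes had 19 tested, with 9 estimates above 0, 10 below and 0 called. The median was -0.10, and 0.10 without control 4. Intervals lay within 2-fold for 12 of 19, beside 80.2% of all genes. Nt5e (chr9:88327197-88372092), the gene of CD73, which makes immunosuppressive adenosine, was at 1083, 969 and 1077 CPM in the bystander libraries and at 785, 749, 778 and 588 in the controls. All 3 bystander values exceeded all 4 controls. The log2 fold change was 0.53 (0.28 to 0.77), which missed the threshold in edgeR (adjusted p = 0.251) and passed it in DESeq2 (adjusted p = 0.00298). Pvr, a ligand of the checkpoint receptor TIGIT, was at 119, 125 and 122 CPM against 119, 107, 95.5 and 83.1. On the lower side, Vsir, the gene of VISTA, was at 81.2, 93.9 and 88.3 CPM against 95.95, 106, 105 and 97.8, and Tnfrsf14, the receptor for BTLA, at 8.58, 10.4 and 11.2 CPM against 12.9, 12.2, 13.5 and 18.6. Both sat below every control, with adjusted p of 0.289 and 0.279. Arg1, the arginine-degrading enzyme arginase and a gene also high in some macrophages, had the lowest estimate of the list, at 7.12, 5.12 and 2.204 CPM against 12.8, 35.1, 9.25 and 6.34. Its log2 fold change was -1.72 (-3.11 to -0.32), with an adjusted p of 0.291 in edgeR, and the groups overlapped. Cd47, the signal that holds off macrophages, had an interval of -0.11 to 0.41 around 0.15.

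Antiviral genes stood somewhat higher in bystander cells than in controls without separating the groups. Of 28 members, 27 estimates were above 0 and 1 below, against 49.0% above 0 over all genes. The median was 0.43, 0 were called, and 5 had an unadjusted p under 0.05 on the higher side, beside 7.75% of all genes. No member had all 3 bystander libraries above all 4 controls, beside 7.91% of all genes. Mx1 (chr16:97447035-97462907), a GTPase that blocks viral replication, was at 5.53, 14.7 and 8.68 CPM in the bystander libraries and at 4.504, 2.29, 2.25 and 6.099 in the controls. Bystander library 2 was the highest and controls 2 and 3 the lowest. The log2 fold change was 1.36 (0.41 to 2.31), with an adjusted p of 0.265 in edgeR and 0.0332 in DESeq2. Ifi44 was at 34.4, 79.8 and 60.7 CPM against 24.99, 11.3, 7.54 and 44.4, with a log2 fold change of 1.41 (0.18 to 2.64). Usp18, which removes the ubiquitin-like protein Isg15 and damps the type I receptor, was at 23.4, 51.8 and 31.3 CPM against 18.7, 11.6, 9.92 and 28.2. Isg15 itself was at 62.6, 104 and 72.4 CPM against 53.5, 47.8, 54.02 and 87.8. The size depended on which tumours were in: the median was 0.25 with 0 members at an unadjusted p under 0.05 without bystander library 2, and 0.65 with 21 such members without control 4. In the GFP cells 13 of 28 were called higher than in the bystander cells of the same tumour, beside 8.94% of all genes. Mx1 was at 7.42, 5.85 and 7.15 CPM in the GFP cells (log2 difference -0.42, adjusted p = 0.319).

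MHC class I genes had log2 fold changes from -0.46 to 0.21. All 22 members had a 95% interval within 2-fold, beside 80.2% of all genes. Of the estimates, 4 were above 0 and 18 below, with 0 called and a median of -0.10. B2m (chr2:122147686-122153083), the light chain of every class I molecule, was at 1538, 1938 and 2102 CPM in the bystander libraries and at 1759.9, 1421, 1317 and 2131 in the controls. The values interleaved, and the log2 fold change was 0.17 (-0.23 to 0.57). The heavy chains H2-K1 and H2-D1 gave -0.07 (-0.38 to 0.24) and -0.02 (-0.36 to 0.31). Nlrc5, the transactivator of class I genes, was at 122, 149 and 133 CPM against 159, 133, 143 and 232. Tap1, which carries peptides into the endoplasmic reticulum, was at 164, 235 and 265 CPM against 279, 167, 215 and 401, with control 4 again the highest and bystander library 1 the lowest. GFP cells exceeded the bystander cells in 13 of the 22 (called), beside 8.94% of all genes. B2m was at 2417, 2443 and 2760.4 CPM in the GFP cells (log2 difference 0.45, adjusted p = 0.0128). The median of the list was 0.01 without bystander library 1 and 0.00 without control 4.

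MHC class II genes spread widely among the controls. H2-Ab1, a class II beta chain, was at 63.7, 122 and 122 CPM in the bystander libraries and at 232, 18.3, 37.4 and 113 in the controls, a spread from control 2 to control 1 that enclosed all 3 bystander values. Its log2 fold change was 0.04 (-1.58 to 1.65). Cd74, the invariant chain, was at 159, 307 and 319 CPM against 566, 59.5, 127 and 394, and Ciita, the class II transactivator, at 7.78, 15.5 and 15.6 CPM against 27.98, 4.54, 8.95 and 29.1. Ctss, the protease that trims the invariant chain and a gene high in macrophages, was the member on the lower side without overlap, at 5.44, 5.99 and 5.05 CPM against 10.1, 16.96, 10.2 and 7.33 (log2 fold change -1.02, adjusted p = 0.253, DESeq2 adjusted p = 0.0132). None of the 8 tested members had an interval within 2-fold, beside 80.2% of all genes. The median of the list was -0.05, 0.63 without control 1 and -0.39 without control 2. In GFP cells 7 of 8 were called higher than in the bystander cells, beside 8.94% of all genes.

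Chemokine and cytokine genes overlapped between the groups. Of 24 tested, 15 estimates were above 0 and 9 below, with a median of 0.14 (-0.01 without bystander library 1) and 0 called. The count without overlap was 0, beside 7.91% of all genes above every control and 6.47% below. Csf3, the growth factor of neutrophils, was at 64.5, 42.5 and 23.2 CPM in the bystander libraries and at 45.2, 40.3, 10.7 and 21.3 in the controls. Cxcl1, a neutrophil attractant, was at 169.8, 136 and 59.5 CPM against 194, 77.3, 112 and 40.3, and the monocyte attractant Ccl2 at 77.2, 52.1 and 35.9 CPM against 63.9, 45.1, 41.5 and 48.2. Cxcl9 and Cxcl10, T cell attractants induced by interferon, had log2 fold changes of 0.12 (-0.49 to 0.73) and 0.53 (-0.21 to 1.28). The GFP cells of the same tumours had 13 of 22 tested members called lower than the bystander cells, beside 10.6% of all genes. Csf3 was at 9.08, 13.9 and 5.84 CPM and Ccl2 at 8.21, 24.4 and 10.2 CPM in the GFP cells (log2 differences -2.14 and -2.003, adjusted p = 0.000123 and 0.00156). Vcam1, an adhesion receptor among the NF-kB targets, was at 263, 272 and 312 CPM in the bystander libraries against 245, 209, 186 and 194 in the controls, above every control (adjusted p = 0.251, DESeq2 0.0229).

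**Figure D3:**
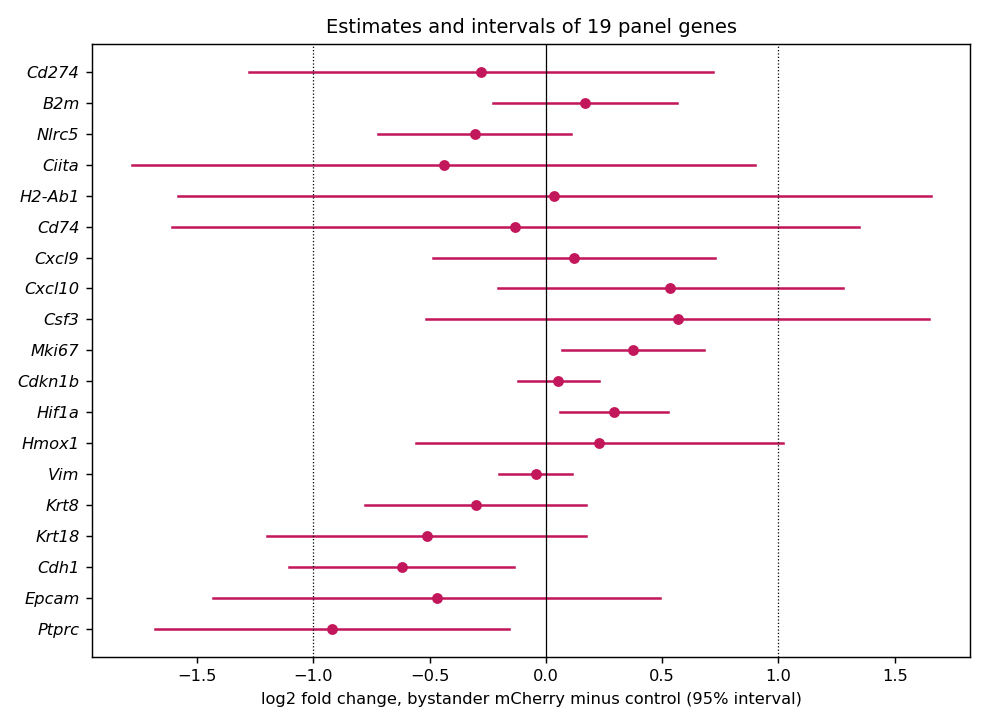
Log2 fold change of bystander mCherry over control (points) with its 95% interval (lines) for 19 genes; dotted lines mark 2-fold in either direction. Vim and Cdkn1b have the narrowest intervals, H2-Ab1, Cd74 and Ciita the widest, and the intervals of Mki67, Hif1a, Cdh1 and Ptprc leave out 0 although none of the 19 passed the adjusted threshold.

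DNA replication genes stood above the controls as a group. All 28 members of the S phase list had an estimate above 0, with a median of 0.35 and a range of 0.03 to 0.63. The 3 bystander libraries exceeded all 4 controls in 18 of the 28, beside 7.91% of all genes, and 23 had an unadjusted p under 0.05, beside 7.75%. No member passed the adjusted threshold in edgeR, and 8 passed it in DESeq2, beside 1.21% of all genes. The members are not independent of each other, and the list was picked with earlier results of these data known.

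Mcm4 (chr16:15623897-15637400), a subunit of the helicase that opens replication origins, was at 113, 97.6 and 102 CPM in bystander libraries 1 to 3 and at 69.7, 68.2, 74.2 and 84.05 in controls 1 to 4. Every bystander value was above every control, and control 4 was the nearest. Its log2 fold change was 0.50 (0.29 to 0.70), with an adjusted p of 0.251 in edgeR and 0.00237 in DESeq2. Prim1, the primase subunit that starts each new strand, was at 30.5, 28.2 and 34.3 CPM against 20.1, 19.3, 18.8 and 22.9 (log2 fold change 0.62, 0.39 to 0.85). Cdc6, which loads the helicase, was at 22.9, 21.6 and 23.6 CPM against 13.99, 13.6, 14.6 and 17.9. Both of these separated the groups, and so did Pcna, the sliding clamp, by a smaller step (276, 279.6 and 287 CPM against 226, 230.5, 224 and 244, log2 fold change 0.28). Leaving out any of the 7 libraries kept 28 of 28 estimates above 0, with medians from 0.30 to 0.42 and 16 to 23 members at an unadjusted p under 0.05. GFP cells of the same tumours were on the other side, with 28 of 28 called lower than the bystander cells, beside 10.6% of all genes. Mcm4 was at 43.9, 51.98 and 60.7 CPM in the GFP cells (log2 difference -1.01, adjusted p = 0.000338).

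Mitosis genes had the same median but a wider spread between the bystander tumours. All 28 G2/M estimates were above 0, with a median of 0.35. An unadjusted p under 0.05 was found for 15, beside 7.75% of all genes, and 6 lay above every control in all 3 bystander libraries, beside 7.91%. Mki67 (chr7:135689784-135716361), the proliferation marker Ki-67, was at 401, 296 and 463 CPM in the bystander libraries and at 275, 305, 305 and 311 in the controls. Bystander library 3 was the highest and library 2 lay among the controls. The log2 fold change was 0.37 (0.07 to 0.68, adjusted p = 0.291). Top2a, the topoisomerase that untangles chromosomes, was at 402, 341 and 684 CPM against 340.3, 259, 274 and 309.8, and Bub1, a spindle checkpoint kinase, at 66.03, 58.8 and 103 CPM against 46.4, 50.6, 45.9 and 56.5. Their log2 fold changes were 0.69 (0.20 to 1.18) and 0.61 (0.21 to 1.01). Without bystander library 3 the median was 0.15, with 25 of 28 estimates above 0 and 6 members at an unadjusted p under 0.05. Without bystander library 2 it was 0.50, with 23 such members. Cdkn1b, the cell cycle inhibitor p27, overlapped between the groups, at 189, 187 and 211 CPM against 189.5, 193, 202 and 173 (log2 fold change 0.05, -0.12 to 0.23). In GFP cells all 28 G2/M genes were called lower than in bystander cells, beside 10.6% of all genes, with Mki67 at 130.4, 167 and 202 CPM.

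**Figure D4:**
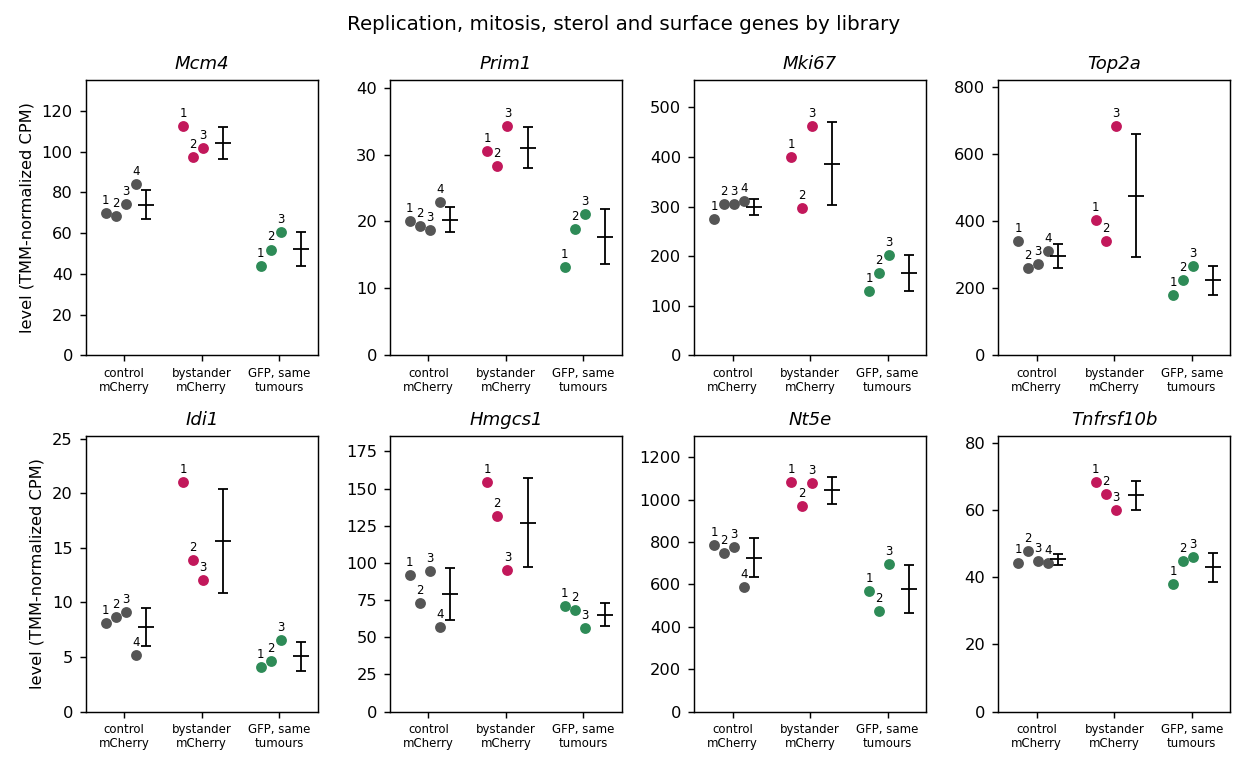
Level of 8 genes (CPM, linear axis from 0) in each library, numbered as in the text; bars give the mean and SD of 4 control, 3 bystander and 3 GFP libraries. Bystander points lie above every control for Mcm4, Prim1, Top2a, Idi1, Hmgcs1, Nt5e and Tnfrsf10b, while Mki67 of bystander library 2 lies among the controls, and the GFP points lie below every bystander point in all 8 panels.

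Genes of cholesterol synthesis and uptake also stood above the controls. Of 20 sterol genes tested (21 listed), 19 estimates were above 0 and 1 below, with a median of 0.53. All 3 bystander libraries lay above all 4 controls in 11 of the 20, beside 7.91% of all genes. An unadjusted p under 0.05 on the higher side was found for 14, beside 7.75%. DESeq2 called 5 higher, beside 1.21%, and edgeR 0. Idi1 (chr13:8885501-8892451), which makes a building block of the isoprenoid chain, was at 21.1, 13.9 and 12.03 CPM in the bystander libraries and at 8.09, 8.64, 9.12 and 5.23 in the controls. Control 4 was the lowest of the 7 and bystander library 1 the highest. The log2 fold change was 1.01 (0.48 to 1.54), with adjusted p = 0.251 in edgeR and 0.00619 in DESeq2. Hmgcs1, at an early step of the pathway, was at 154, 132 and 95.2 CPM against 91.7, 73.1, 94.8 and 56.9, where bystander library 3 and control 3 nearly met. Cyp51 and Msmo1, which remove methyl groups from lanosterol and its products, were at 82.1, 56.7 and 54.2 and at 43.6, 33.98 and 36.6 CPM in the bystander libraries. The controls had 39.8, 38.6, 43.2 and 20.7 CPM for Cyp51 and 24.96, 23.05, 24.9 and 10.97 for Msmo1. Stard4, a carrier of cholesterol inside the cell, was at 49.5, 40.7 and 51.3 CPM against 29.2, 28.6, 30.6 and 17.8. Srebf2, the transcription factor of the pathway, overlapped between the groups (223, 207 and 186 CPM against 179, 169, 217 and 101).

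Without control 4 the sterol median was 0.40, with 14 members at an unadjusted p under 0.05 and 11 without overlap. Without bystander library 1 it was 0.43, with 6 such members. Fatty acid synthesis gave 12 of 15 estimates above 0 and a median of 0.17. Acsl3, which activates fatty acids, was at 156, 146 and 136 CPM against 126, 111, 107 and 108 (log2 fold change 0.37, 0.19 to 0.55), and Fasn, the fatty acid synthase, at 558, 550.2 and 521 CPM against 465, 426, 547 and 418. GFP cells had 19 of 20 sterol genes called lower than the bystander cells, beside 10.6% of all genes. Idi1 was at 4.05, 4.595 and 6.53 CPM in the GFP cells (log2 difference -1.61, adjusted p = 0.00155).

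Of 21 death receptor and apoptosis genes tested, 2 lay above every control, beside 7.91% of all genes. Another 2 lay below every control, beside 6.47%, so these counts do not set the list apart. Tnfrsf10b (chr14:69767472-69784411), the mouse receptor for the death ligand TRAIL, was at 68.4, 64.7 and 59.98 CPM in the bystander libraries and at 44.4, 47.8, 44.9 and 44.2 in the controls. The lowest bystander value was above the highest control, and the 4 controls spanned less than the 3 bystander libraries. Its log2 fold change was 0.51 (0.35 to 0.67), with an unadjusted p of 5.41e-05, an adjusted p of 0.251 in edgeR and one of 4.92e-05 in DESeq2. GFP cells of the same tumours had 38.00, 44.8 and 46.1 CPM (log2 difference -0.59, adjusted p = 0.00355). The list as a whole had 13 of 21 estimates above 0 and a median of 0.02, which was -0.05 without control 3. Xiap, an inhibitor of caspases, also lay above every control, at 104, 109 and 95.3 CPM against 94.4, 93.2, 82.2 and 91.5 (adjusted p = 0.325 in edgeR). Below every control were Tnfrsf1a, a receptor for TNF, at 87.00, 91.4 and 93.96 CPM against 94.7, 96.6, 101 and 102, and Serpina3g, a protease inhibitor of low level, at 0.619, 0.0457 and 1.15 CPM against 1.27, 3.36, 1.47 and 1.62. Serpina3g had a log2 fold change of -1.67 (-3.22 to -0.12, adjusted p = 0.332 in edgeR). Fas, another death receptor, was at 17.3, 22.7 and 14.1 CPM against 24.9, 12.1, 10.02 and 20.4, and Casp8, the protease both receptors activate, at 61.9, 58.2 and 60.99 CPM against 60.6, 55.00, 54.4 and 57.1.

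Several single genes had a small p without passing the adjusted threshold in edgeR, and all of those named here except Mmp3 passed it in DESeq2. Arhgap26, a GTPase-activating protein, had the smallest p of all 14800, at 84.3, 79.8 and 85.1 CPM against 61.1, 60.4, 56.6 and 54.2. Its log2 fold change was 0.52, with an unadjusted p of 2.89e-05 and an adjusted p of 0.251 in edgeR. Slfn3, of the Schlafen family, was at 20.7, 21.6 and 22.3 CPM against 15.7, 12.6, 12.9 and 14.8, and Slfn9 at 148, 143 and 159 CPM against 93.9, 78.7, 83.01 and 121. Pdgfa, a growth factor for fibroblasts and pericytes, was at 125, 130.5 and 146 CPM against 102, 104, 90.6 and 93.2. Mmp3, a matrix protease, was at 228, 243 and 267 CPM against 150.1, 186, 87.3 and 94.9 (log2 fold change 0.93, 0.38 to 1.47). On the lower side, Psat1, an enzyme of serine synthesis, was at 66.03, 62.9 and 63.7 CPM against 95.95, 113, 78.8 and 109, and the asparagine synthetase Asns at 28.4, 38.7 and 31.1 CPM against 49.5, 61.8, 38.6 and 52.5. Htra3, a secreted protease, was at 59.8, 53.3 and 45.5 CPM against 74.98, 77.8, 84.2 and 73.1 (log2 fold change -0.55, -0.77 to -0.32). The adjusted p in DESeq2 was 1.33e-05 for Arhgap26, 0.00130 for Slfn3, 0.00272 for Slfn9, 0.00132 for Pdgfa and 0.0935 for Mmp3. It was 0.00130 for Psat1, 0.0193 for Asns and 0.00130 for Htra3. Of the 243 genes that DESeq2 called, 229 had groups without overlap. Over all genes, 7.91% lay above every control and 6.47% below. The calls and the overlap come from the same 7 libraries, so this count is no separate support for the calls.

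Stress and hypoxia genes had estimates on both sides of 0, and 0 were called by edgeR. Heat shock genes gave 12 of 14 estimates above 0 and a median of 0.23, which was -0.01 without bystander library 2. Hsp90aa1, an inducible chaperone, was at 892, 1119 and 962 CPM against 849.5, 698, 661 and 705, above every control (log2 fold change 0.45, 0.20 to 0.70, adjusted p = 0.253, DESeq2 0.0198). Hspa5, the chaperone of the endoplasmic reticulum, was at 4316, 5161 and 4501 CPM against 4029.8, 3423, 3645 and 4216. It was 1 of 5 genes of the unfolded protein list of 20 that lay above every control, beside 7.91% of all genes. The others were the chaperone Hsp90b1, the disulfide isomerases Pdia4 and Pdia6, and the stress sensor Atf6, with log2 fold changes of 0.29, 0.19, 0.19 and 0.15. On the lower side of that list, Trib3, Asns and Sesn2 had log2 fold changes of -0.58, -0.62 and -0.55 with overlapping groups, and DESeq2 called Asns (adjusted p = 0.0193). The stress factors Atf4 and Ddit3 had log2 fold changes of -0.01 (-0.24 to 0.22) and -0.14 (-0.54 to 0.25). Hypoxia genes gave 18 of 22 estimates above 0 with a median of 0.07 (-0.01 without control 4 or without control 3), and Hif1a, the oxygen-regulated factor, was at 268, 253 and 222 CPM against 199, 224, 174 and 214 (adjusted p = 0.284). Adm, a vasodilator peptide gene near the floor, lay below every control, at 0.575, 0.457 and 0.276 CPM against 0.793, 2.38, 0.804 and 1.11 (log2 fold change -1.53, -2.67 to -0.40, adjusted p = 0.273 in edgeR). Ero1l, an oxidase of the endoplasmic reticulum, lay above every control, at 308, 329.98 and 342 CPM against 297, 292, 144 and 188. Car9, a hypoxia marker, was at 68.4, 72.4 and 87.2 CPM against 81.3, 75.9, 67.1 and 48.2, and in GFP cells at 146, 151 and 149 (log2 difference 0.96, adjusted p = 0.000142). Hmox1, which breaks down haem, was at 19.8, 41.1 and 22.04 CPM against 29.2, 21.5, 11.96 and 31.9, and in GFP cells at 142, 129.8 and 65.01 CPM. Respiratory chain genes had 25 of 25 intervals within 2-fold, and ribosomal protein genes 28 of 28, beside 80.2% of all genes.

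Epithelial genes had estimates mostly below 0. Of 13 epithelial genes tested (20 listed), 12 estimates were below 0, with a median of -0.42. Cdh1, the gene of E-cadherin, was at 12.3, 14.1 and 13.5 CPM in the bystander libraries and at 16.4, 16.5, 19.3 and 30.02 in the controls, below every control (log2 fold change -0.62, -1.10 to -0.14, adjusted p = 0.283). For Cdh1, GFP cells were at 28.4, 37.7 and 37.4 CPM (log2 difference from the bystander cells 1.36, adjusted p = 5.92e-05). The list as a whole did not follow Cdh1 there. Of 13 members tested, 1 was called higher in GFP than in bystander cells and 4 lower, with a median of -0.20. Over all genes, 8.94% were called higher and 10.6% lower. Krt8 was at 644, 555 and 438 CPM against 443, 838, 753 and 665, and Krt18 at 263, 192 and 161 CPM against 158, 418, 347 and 254. Collagens gave 13 of 20 estimates below 0 and a median of -0.40, which was 0.02 without control 2. Col1a1, a fibrillar collagen made in bulk by fibroblasts, was at 150.1, 52.2 and 175 CPM against 85.6, 712, 201 and 171, with control 2 far above the rest. Fn1, fibronectin, was at 21607, 20873 and 21618 CPM against 27787, 19509, 26179.6 and 17126. Itgb3, an integrin chain that binds it, was at 94.6, 98.7 and 119.8 CPM against 70.7, 94.2, 54.7 and 54.1, above every control by a narrow margin (log2 fold change 0.61, 0.19 to 1.04, adjusted p = 0.265).

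Of 12 marker lists of other cell types, those of macrophages and adipocytes had list levels that did not overlap between the groups, and the other 10 overlapped. Macrophage and monocyte markers were lower in bystander libraries in 17 of 18 estimates, with a median of -1.32. Of the 18, 12 had all 3 bystander libraries below all 4 controls, beside 6.47% of all genes, and DESeq2 called 8 lower, beside 0.820%. Lyz2 (chr10:117277331-117282321), a lysozyme of myeloid cells, was at 7.12, 4.76 and 3.63 CPM in the bystander libraries and at 16.1, 44.9, 29.3 and 13.1 in the controls (log2 fold change -2.32, -3.34 to -1.30, adjusted p = 0.251). Control 2 was the highest and bystander library 3 the lowest. C1qa, a complement subunit made by macrophages, was at 4.25, 1.65 and 2.48 CPM against 8.31, 20.7, 12.97 and 5.74. Csf1r, the receptor for macrophage growth factor, was at 2.08, 1.14 and 0.735 CPM against 3.96, 10.5, 6.74 and 2.46. Cd14, on the list as a monocyte receptor, was the exception at 75.7, 84.5 and 68.7 CPM against 48.4, 67.5, 34.9 and 34.4, above every control. The summed level of the whole list, Cd14 included, was 96.4 to 122 CPM in the bystander libraries and 92.2 to 236 in the controls. Without control 2 the median of the list was -0.98, and 12 members were apart on the lower side.

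Adipocyte markers stood above the controls, with control 4 close to the bystander libraries. All 9 estimates were above 0 with a median of 1.38, and the summed level was 59.6 to 75.7 CPM in the bystander libraries. In controls 1, 2 and 3 it was 14.6, 21.1 and 14.8 CPM, and in control 4 it was 57.1. Adipoq, the fat cell hormone adiponectin, was at 5.31, 6.72 and 5.65 CPM against 1.300, 0.9504, 1.27 and 5.62 (log2 fold change 1.39, 0.11 to 2.66). Without control 4, edgeR called 7 genes, all higher in bystander cells. Plin1, Retn, Lpl and Adipoq are on the adipocyte list, and Car3, Cfd and Slfn9 are not. Adipoq then had a 5.02-fold difference with an adjusted p of 0.0223 in edgeR, against 0.328 with all 7 libraries. The control left out is the one nearest the bystander libraries in the adipocyte markers. Calls of fat cell genes made without it are therefore no separate support for a difference.

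T and NK cell markers were near the floor in both groups. Of 20, 18 were under 1 CPM in all 7 libraries, among them Cd3e at 0.133, 0.0915 and 0.2296 CPM in the bystander libraries and 0.127, 0.267, 0.134 and 0.356 in the controls, and Gzmb at 0, 0 and 0 CPM against 0, 0.0594, 0.0335 and 0. Lck and Il2rb were the members tested, with log2 fold changes of -0.21 (-0.53 to 0.12) and 0.06 (-0.48 to 0.59). Endothelial markers overlapped in 14 of 14, while 7.91% of all genes lay above every control and 6.47% below. Summed endothelial levels were 37.3 to 71.9 CPM in the bystander libraries and 32.5 to 144 in the controls, control 2 being the highest. The median of the endothelial list was -0.58, and 0.29 without control 2. Neutrophil markers summed to 2.6 to 18.2 CPM and 1.1 to 14.4 CPM. The sum of fibroblast markers was 1369 to 1570 CPM against 1446 to 1781. Tumour cells can also express genes of that list, and which cells this RNA came from was not tested. The part of these cell types in the differences between the groups was not tested.

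**Figure D5:**
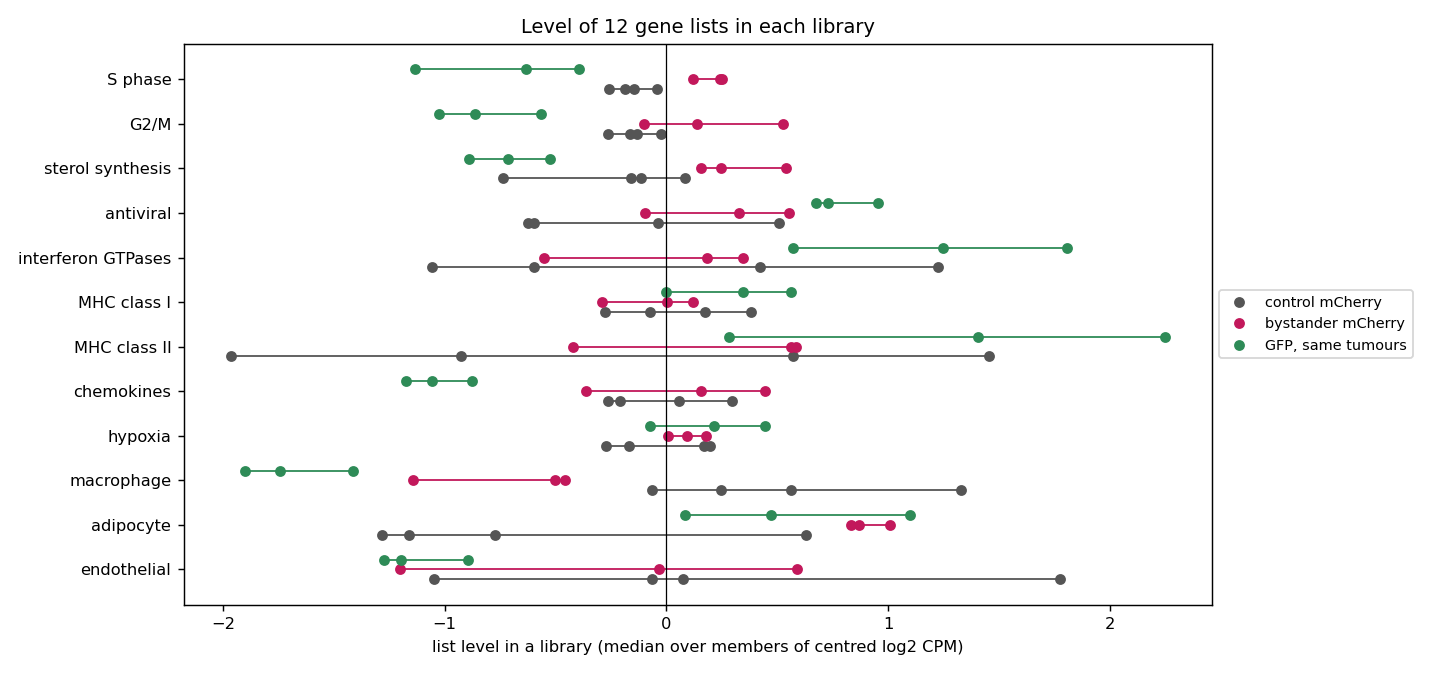
Level of 12 gene lists in each library, as the median over members of log2 CPM centred on the 7 libraries of the comparison; points are libraries and lines join the lowest and highest of a group of 4 control, 3 bystander and 3 GFP libraries. The bystander points lie above every control for S phase, sterol synthesis and adipocyte lists, below every control for the macrophage list, and overlap the controls for the other 8.

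List levels by library can depart from the median log2 fold change of a list. For MHC class II that median was -0.05, while the mean list level was 0.24 in bystander cells and -0.22 in controls. For the S phase list the bystander libraries were at 0.12 to 0.25 and the controls at -0.26 to -0.04, while GFP cells were at -1.13 to -0.39. The interferon GTPase list ran from -0.55 to 0.35 in bystander cells and from -1.06 to 1.23 in controls, a wider range in the controls. The macrophage list ran from -1.14 to -0.46 in bystander cells, from -0.07 to 1.33 in controls and from -1.90 to -1.41 in GFP cells. Over all 45 lists, the bystander levels were apart from the controls in 5: S phase, sterol synthesis, fatty acid synthesis and adipocyte on the higher side and macrophage on the lower. Of single genes, 7.91% lay above every control and 6.47% below. These are shares observed in the same comparison, so they do not give the number of lists apart without any change. A list level is a median over members and is not the same measure as a gene level. These lists differ in size and share members in part, and a list level has no test here.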

How the data were processed

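The deposited table holds whole-number counts per gene, for 49315 genes, which the authors' sequencing company made per the labels' protocols. The submitters' processing notes name mm10 and DESeq2, while aligner, counter and annotation were not given in the sources used here. Rows without a symbol (176, about 0.01% of counts) were left out. Control columns were matched to their group, not to single samples.

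The 7 libraries were fitted in edgeR 4.0.16 (R 4.3.3, limma 3.58.1): filterByExpr with a minimum count of 10 and total of 15, TMM factors, quasi-likelihood test and Benjamini-Hochberg adjustment over the 14800 genes tested, threshold 0.05, with 5 residual degrees of freedom. GFP and mCherry libraries were compared with the tumour as a block, because the labels give both the same tumour numbers and so the same animals. CPM were scaled over 10 libraries. The test was checked on simulated counts with the same dispersion for every gene and changes of at least 2-fold. That check does not cover smaller changes or the uneven spread between these tumours. DESeq2 1.42.0, other scalings, filters, thinned counts and left-out libraries were alternatives, and limma voom, a robust prior and lists without each library were added after seeing the data. The naming rule took called genes and called list members (0 genes), a fixed panel and abundant cell type markers (44 genes); the other genes named were chosen after their values were seen. The comparison and the 45 lists were chosen with earlier results of these data known. Some genes are not reported here. Total counts set the precision, and intervals on a count of 0 cover counting error only.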

Additional observations from a re-analysis of the deposited data

Results flagged for a closer look

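In each group of 4 controls, a library was singled out where its gap to the nearest other exceeded Dixon's 95% critical share of the whole range. This was applied to 222 gene levels and 45 list levels. Chance alone gives such a gap in about 1 in 20 independent groups chosen beforehand. Of the genes, 44 were named by rule and the others after their values were seen. The genes are also not independent of each other, so the counts below cannot be set against that rate. It singled out 23 gene levels and 2 list levels, with 12 in control 2, 12 in control 4, 1 in control 3 and 0 in control 1.

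Control 2 was the highest for vessel, myeloid and matrix genes. Acta2, a smooth muscle actin, was at 11.2 CPM (other controls 1.36 to 2.04), the pericyte gene Rgs5 at 8.73 (0.539 to 1.70) and the vessel receptor Flt1 at 42.9 (12.9 to 16.9). The macrophage receptor Mrc1 was at 9.30 CPM (1.78 to 3.05), the neutrophil gene S100a8 at 4.19 (0.594 to 1.08) and the protease Ctsc at 23.5 (8.28 to 9.35). Bgn, a matrix proteoglycan, was at 71.9 CPM (13.9 to 20.5) and the collagen Col6a1 at 579 (449 to 469). Serpina3g was at 3.36 CPM (1.27 to 1.62), the lactate transporter Slc16a3 at 10.9 (2.35 to 2.82) and Sra1 at 88.2 (82.7 to 82.9). The level of the matrix remodelling list was 0.171 there, against -0.102 to -0.0960.

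Control 4 was the highest for fat cell genes. Adipoq was at 5.62 CPM (0.950 to 1.30), Car3 at 27.3 (6.66 to 9.06), Cfd at 23.6 (4.90 to 5.80), Plin1 at 3.45 (0.761 to 1.07) and Retn at 1.78 (0.570 to 0.730). Col14a1 was at 14.9 CPM (6.37 to 6.72), the haemoglobin gene Hba-a1 at 1.19 (0.0297 to 0.190), and the level of the fibroblast list was 0.906 (-0.169 to -0.0253). Control 4 was the lowest for the sterol genes Msmo1, at 10.97 CPM (23.05 to 24.96), and Stard4, at 17.8 (28.6 to 30.6), and for the respiratory chain gene Ndufa1, at 16.8 (19.6 to 20.0). It was the highest for the antiviral gene Isg15, at 87.8 CPM (47.8 to 54.02). Control 3 was the lowest for Cxcl9, at 2.82 CPM (5.82 to 6.09).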

How the results depend on the processing

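The count of 0 genes called between bystander and control cells stayed at 0 in 7 alternatives (DESeq2 size factors, no filter, a minimum count of 50, the joint fit, thinned counts, limma voom and the robust prior). DESeq2 called 243. Leaving out 1 library gave 0 to 7 calls, the 7 without control 4, and 1457 to 2633 genes at an unadjusted p under 0.05. The cause of the difference between the tools was not tested. No paired analysis was possible for this comparison because the groups come from different mice. For day 15 GFP against mCherry of the same tumour, the fit with the tumour as a block called 2782 genes, no replicate block 2059, DESeq2 2309, and leaving out 1 tumour 1736 to 2546, the lowest without library pair 3. Of 3235 gene values under an alternative, 0 reversed and 60 came to pass the threshold, 53 with DESeq2 and 7 with a library left out. The median of 28 of 45 lists changed sign in at least 1 alternative. S phase, G2/M, sterol, antiviral, macrophage and adipocyte lists kept their sign in all 15. Other scalings moved the median of all genes by less than 0.1. With 3 tumours against 4, an exact permutation test of a single value cannot go below 0.0571 (two-sided).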
